A study of Mus musculus with 12 samples.

Results

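Subcutaneous white fat (scWAT) was set against epididymal white fat (epWAT) in wild-type (WT) mice, a depot comparison of 6 of the 12 RNA-seq libraries of a study of C2orf74, a gene named after an open reading frame. The 6 libraries were all those labelled WT. Mice C75, C85 and C99 each gave 1 scWAT and 1 epWAT library, so the depots were matched within the animal (n = 3 mice). All WT mice received a high-fat diet from 8 weeks of age for 12 weeks, and no lean or chow-fed animals are described here. The other 6 libraries came from the scWAT and epWAT of 3 C2orf74 knockout (KO) mice on the same diet, and they enter only at the end. The labels give neither strain nor how much of a pad was taken. Each library is RNA of whole tissue, in which fewer cells of a type and less RNA per cell cannot be told apart. In the values below, mice stand in the order C75, C85, C99, and gene levels are in FPKM (fragments per kilobase of gene, scaled to the depth of the library).

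White fat stores triglyceride in adipocytes and releases fatty acids between meals. Around the adipocytes lie progenitors, vessels, nerves and immune cells. Subcutaneous pads develop under the skin, whereas the epididymal pad lies in the abdominal cavity beside the gonad and is covered by mesothelium. The pads carry different developmental transcription factors, and the epididymal pad of mice on a rich diet is known for gathering macrophages that engulf lipid from dying adipocytes.

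Sequencing depth was even. WT scWAT libraries held 16192574 to 18311564 recovered reads and WT epWAT libraries held 17574947 to 18263864. The labels' tissue was borne out by adipocyte transcripts in every library: Adipoq, the hormone adiponectin, had 2098, 1966 and 1963 FPKM in scWAT and 1108, 1361 and 1503 FPKM in epWAT. Epididymis and testis transcripts were near 0, with 16 genes summing to at most 2.66 FPKM in scWAT and 2.24 FPKM in epWAT, and their part in the results was not tested. Muscle transcripts differed between scWAT libraries. Ckm, the muscle creatine kinase, had 4.13, 0.0562 and 1.18 FPKM in scWAT and 0.116, 0.117 and 0 FPKM in epWAT, and Myh4, a fast-twitch myosin, had 10.1, 0.172 and 1.09 FPKM in scWAT and 0.169, 0.180 and 0 FPKM in epWAT. Epidermal keratin Krt14 was seen in epWAT of C85 at 7.87 FPKM, against 0.225 and 0.997 FPKM in epWAT of the other mice and 0 FPKM in all scWAT libraries. Its epWAT libraries stood in the same order as for the mesothelial gene Upk3b below, and the source of Krt14 was not tested.

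Of 12760 genes tested with limma on log2(FPKM + 1), 2852 (22.4%) passed a Benjamini-Hochberg adjusted p of 0.05. Of these, 956 (7.49% of the genes tested) were higher and 1896 (14.9%) were lower in scWAT than in epWAT. All 956 higher and all 1896 lower genes had the same sign in 3 of 3 mice, which choosing them by p in the same libraries makes likely. Large differences were mostly on the lower side: 105 genes were higher and 445 lower by at least 1 on the log2 scale, and 14 were higher and 55 lower by at least 2. The split depended on scaling, because upper-quartile scaling gave 1606 higher and 1404 lower genes and quantile scaling gave 1413 higher and 1502 lower. Leaving out scWAT of C99, scWAT of C85 or epWAT of C75 gave 1289, 1616 and 1891 calls, and the higher genes numbered 379 to 628 without any 1 library other than epWAT of C85 (870). A fit blocked by mouse called 3806 genes (29.8%), 2787 of the 2852 among them. With no regard to the test, the depots did not overlap for 43.2% of the genes, in 15.8% with scWAT above and in 27.3% with scWAT below. A gene is called higher or lower below only when it passed the limma test without the block. That fit leaves the pairing of depots within mice unused. Counts for a list stand against the shares over all genes tested, 7.49% higher and 14.9% lower. All log2 differences are scWAT minus epWAT on the log2(FPKM + 1) scale with their standard error (SE).

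**Figure D1:**
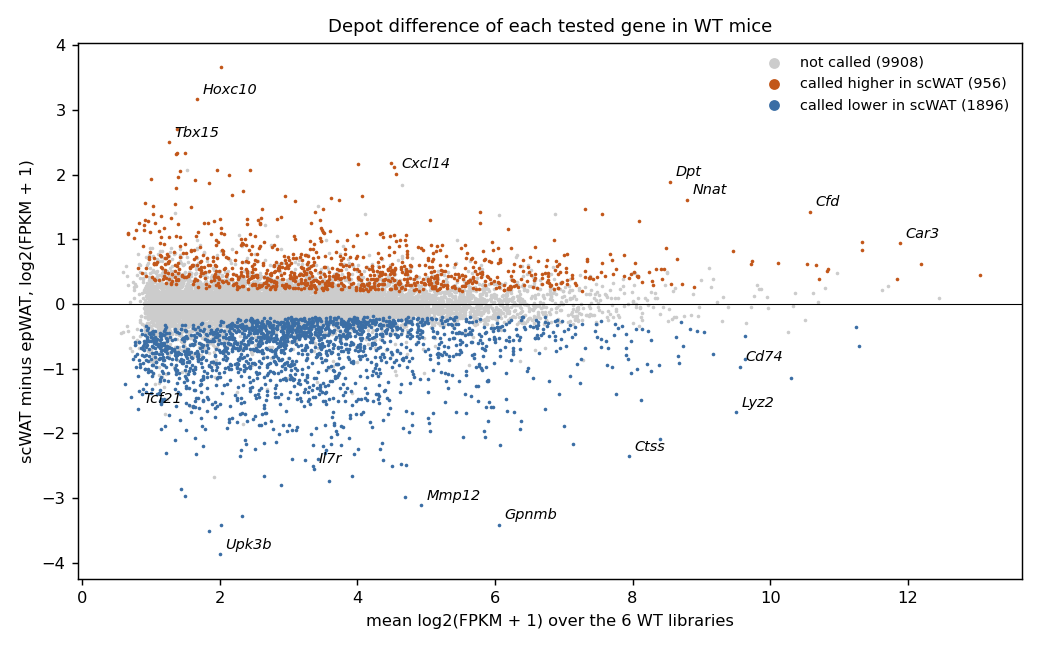
Depot difference (vertical axis, scWAT minus epWAT, log2(FPKM + 1)) against mean level (horizontal axis, log2(FPKM + 1)) for the 12760 genes tested in WT mice, 1 point per gene. Orange points are the 956 genes called higher and blue points the 1896 called lower in scWAT, and the lower genes reach further from 0, with 6 lower and 2 higher called genes past 3 on this scale.

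Some transcription factors that lay out the body plan separated the depots. Tbx15, a T-box factor of the trunk skin and skeleton, had 5.21, 4.12 and 4.86 FPKM in scWAT, against 0.0301, 0 and 0 FPKM in epWAT. In reads this was 923 in scWAT and 2 in epWAT over the group, a depth-adjusted ratio of 473 (95% exact interval 130 to 3910, counting error only), and the log2 difference was 2.50 ± 0.10 (SE; limma adjusted p = 0.000864). Shox2, a limb homeobox gene, had 8.21, 3.22 and 4.17 FPKM in scWAT and 0.204, 0.223 and 0.0662 FPKM in epWAT (log2 difference 2.33 ± 0.28; limma adjusted p = 0.00481). No scWAT library of either gene came near an epWAT library. Lhx8, a LIM homeobox gene, was higher by 1.80 ± 0.33, although epWAT of C75 held 1.25 FPKM against 0.0674 and 0.0865 FPKM in the other epWAT libraries, and Osr2, a zinc finger factor of limb and palate, was higher by 1.36 ± 0.16. En1, the engrailed homeobox gene, was too low for the test, with 189 reads in scWAT and 17 in epWAT (ratio 11.4, interval 6.92 to 20).

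On the epididymal side, Tcf21, a basic helix-loop-helix factor of visceral mesenchyme, had no read in any scWAT library, against 1.99, 1.79 and 2.47 FPKM in epWAT. With 3 reads over the group taken as the floor, Tcf21 was at least 85.6-fold lower in scWAT (log2 difference -1.62 ± 0.12; limma adjusted p = 0.00253). Wt1, the Wilms tumour factor of mesothelium and visceral fat progenitors, also had no scWAT read, against 458 epWAT reads, and was at least 149-fold lower in scWAT, but too low for the test. Outside the Hox clusters, 21 of 50 patterning factors were tested, of which 7 were higher and 2 lower in scWAT, with a median of 0.34 against -0.04 over all genes tested. Of the 21, Tbx15, Shox2 and Osr2 passed the filter through scWAT alone and Tcf21 through epWAT alone, where each is high. Of the other 17, 4 were higher and 1 lower, against 7.49% and 14.9% of all genes tested. Without epWAT of C99 or scWAT of C99 4 were higher, and without scWAT of C85 or scWAT of C99 1 was lower.

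Hox genes, which set position along the body axis, differed mainly at the posterior end of the A and C clusters. Hoxc10 had 10.5, 6.26 and 9.42 FPKM in scWAT and 0.0296, 0.119 and 0.0287 FPKM in epWAT, or 863 against 6 reads (ratio 147, interval 67.4 to 402). Its log2 difference was 3.17 ± 0.17 (limma adjusted p = 0.00155), and the lowest scWAT library lay far above the highest epWAT library. Hoxa10 had 6.89, 3.47 and 7.39 FPKM in scWAT and 0.0345, 0 and 0.0167 FPKM in epWAT (2.71 ± 0.24; limma adjusted p = 0.00382), and its neighbour Hoxa9 differed by 1.93 ± 0.17. Hoxc9 was detected in both depots, at 8.67, 7.46 and 8.93 FPKM in scWAT and 1.70, 1.54 and 2.10 FPKM in epWAT (1.75 ± 0.10; limma adjusted p = 0.00211). Hoxc4, from the anterior end of the C cluster, went the other way, with 3.73, 4.45 and 3.28 FPKM in scWAT and 6.44, 7.18 and 6.82 FPKM in epWAT (-0.70 ± 0.10; limma adjusted p = 0.00692). Hoxa5 did not pass the test, at 3.06, 2.39 and 3.26 FPKM in scWAT and 3.25, 4.40 and 3.30 FPKM in epWAT (-0.25 ± 0.13; limma adjusted p = 0.230). Of 18 Hox genes tested among 39 listed, 6 were higher and 1 lower, with a median of 0.18, and 3 of the 6 (Hoxc10, Hoxa10, Hoxa9) passed the filter through scWAT alone. Of the other 15 Hox genes, 3 were higher and 1 lower, against 7.49% and 14.9% of all genes tested.

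**Figure D2:**
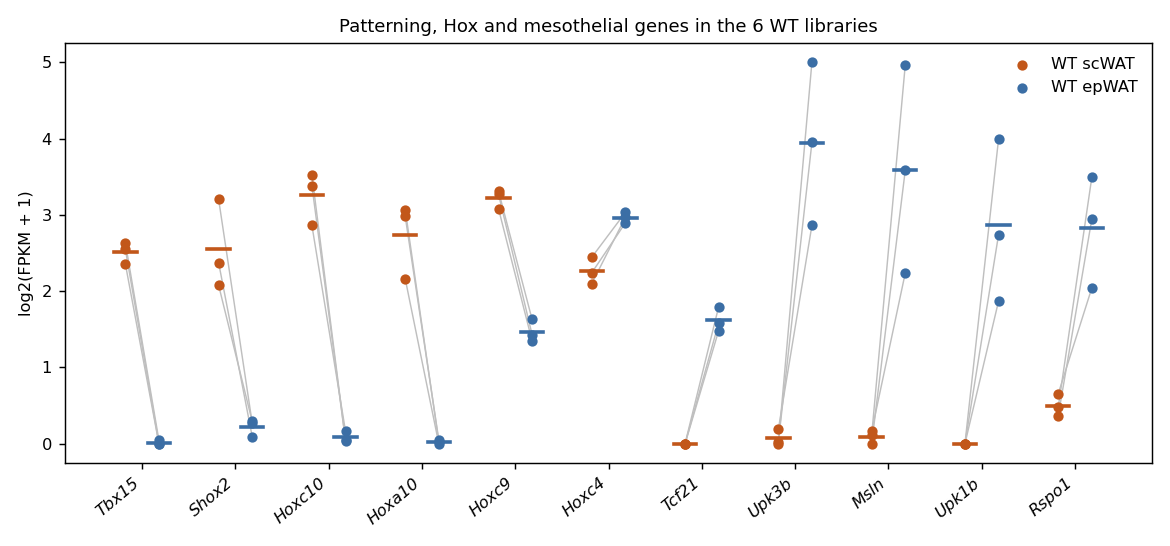
Level in log2(FPKM + 1) (vertical axis) of 11 patterning, Hox and mesothelial genes (horizontal axis) in the WT libraries, with scWAT in orange on the left and epWAT in blue on the right of each gene. Points are libraries, short bars are means of 3, and grey lines join the depots of 1 mouse; for each gene all lines slope the same way.

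Most mesothelial genes had under 1 FPKM in scWAT. Upk3b, a uroplakin of the mesothelial surface, had 0.140, 0 and 0.0159 FPKM in scWAT and 6.28, 31.2 and 14.5 FPKM in epWAT, or 9 against 3261 reads, so that epWAT exceeded scWAT by a ratio of 354 (interval 186 to 774). This was the largest fitted difference of any called gene, at -3.87 ± 0.49 (limma adjusted p = 0.00528; 0.0748 with limma-voom on recovered reads). Msln, mesothelin, had 0.117, 0.0775 and 0 FPKM in scWAT and 3.71, 30.2 and 11.0 FPKM in epWAT (-3.50 ± 0.62; limma adjusted p = 0.0122). Upk1b had no scWAT signal and 2.65, 14.9 and 5.66 FPKM in epWAT. The order of the mice was the same for these 3 genes, with epWAT of C85 the highest and epWAT of C75 the lowest. Lrrn4, a leucine-rich repeat protein, and Rspo1, a secreted Wnt agonist, were lower by 2.10 ± 0.36 and 2.33 ± 0.35 on the log2 scale. Slpi, a secreted leukocyte protease inhibitor, followed the same order of mice, with 0.419, 0.231 and 1.38 FPKM in scWAT and 6.46, 34.1 and 13.3 FPKM in epWAT (-3.27 ± 0.56; limma adjusted p = 0.0111). Krt19, a keratin of simple epithelia, was lower by 1.94 ± 0.51, but lost its call without scWAT of any mouse or without epWAT of C99 (limma adjusted p = 0.0792 to 0.121). Cldn15, a claudin found in several epithelia, was the exception, with 28.3, 27.1 and 24.6 FPKM in scWAT and 14.9, 24.4 and 13.7 FPKM in epWAT. It missed the test (0.61 ± 0.20; limma adjusted p = 0.0795) and passed as higher in a fit blocked by mouse (0.0403), under upper-quartile scaling (0.0466) and without epWAT of C85. Of 9 mesothelial genes tested among 15 listed, none was higher and 8 were lower. The filter fixed much of this count, because 7 of the 9 were under 1 FPKM in all scWAT libraries and entered through epWAT alone. Without epWAT of C99, scWAT of C85 or scWAT of C99 5 of the 9 were lower. With limma-voom on recovered reads 4 were lower, Upk3b and Krt19 lost their calls, and Msln and Upk1b were not tested. Without mouse C99 in a blocked fit 1 was lower, and Msln, Upk1b, Lrrn4, Rspo1 and Krt19 lost their calls.

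By rank of p, the higher genes were led by Ces1f, a liver-type carboxylesterase, with 45.4, 48.7 and 48.4 FPKM in scWAT and 10.1, 10.6 and 9.60 FPKM in epWAT (2.13 ± 0.06; limma adjusted p = 0.000157). Dpt, dermatopontin, a small matrix protein of skin and connective tissue, was among the most abundant, with 787, 661 and 721 FPKM in scWAT and 207, 186 and 189 FPKM in epWAT (1.89 ± 0.09; limma adjusted p = 0.00116). The spread between mice was a small part of either gap. Podn, a leucine-rich matrix proteoglycan, Nap1l5, an imprinted gene, Art3, an ADP-ribosyltransferase-like protein, Mccc2, a subunit of the leucine-degrading enzyme methylcrotonyl-CoA carboxylase, Ogfod3 and the myosin light chain Myl1 were higher by 0.98 ± 0.06, 1.10 ± 0.08, 1.25 ± 0.10, 0.86 ± 0.07, 0.69 ± 0.06 and 1.09 ± 0.08. Tbx15, Hoxc10 and Hoxc9 ranked among them. By size, Akr1c18, a steroid-converting aldo-keto reductase, was higher by 2.32 ± 0.25 and Pi16, a marker of interstitial fibroblast progenitors, by 2.19 ± 0.21. Myl1 is a member of the muscle list, whose Ckm and Myh4 were uneven among scWAT libraries. Myl1 itself was even, at 31.2, 27.1 and 27.0 FPKM in scWAT and 12.7, 13.4 and 12.3 FPKM in epWAT.

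Among lower genes, the smallest p values belonged to an aldo-keto reductase, Akr1c13, to Slc9a3r1, a PDZ scaffold under the cell membrane, and to Sdf2l1, a cofactor of the endoplasmic reticulum chaperone BiP. Slc9a3r1 had 7.70, 7.38 and 7.27 FPKM in scWAT and 24.8, 23.5 and 20.5 FPKM in epWAT (-1.50 ± 0.08; limma adjusted p = 0.00155). Akr1c13 differed by -1.11 ± 0.06 and Sdf2l1 by -1.34 ± 0.07. Receptors of myeloid cells came next: C5ar1, the receptor for complement fragment C5a, had 10.4, 11.5 and 11.2 FPKM in scWAT and 45.1, 35.1 and 35.2 FPKM in epWAT (-1.71 ± 0.11; limma adjusted p = 0.00217), and Cd300a, an inhibitory receptor, differed by -1.95 ± 0.12. Anxa1, the glucocorticoid-induced annexin, differed by -1.03 ± 0.07, the amino acid carrier Slc43a2 by -1.05 ± 0.07, the membrane protein Tmem176b by -0.80 ± 0.05, the epoxide hydrolase Ephx1 by -0.80 ± 0.05 and the amino sugar enzyme Gnpda1 by -0.90 ± 0.07. Col6a5, an alpha chain of collagen VI, was one of the largest differences, with 0.499, 0.174 and 0.102 FPKM in scWAT and 18.2, 8.03 and 12.5 FPKM in epWAT (-3.41 ± 0.28; limma adjusted p = 0.00316).

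Macrophage genes were lower in scWAT throughout. Adgre1, which encodes the F4/80 antigen, had 24.4, 25.2 and 16.8 FPKM in scWAT and 121, 83.0 and 82.2 FPKM in epWAT (-2.06 ± 0.21; limma adjusted p = 0.00411). Cd68, a lysosomal glycoprotein of phagocytes, had 84.1, 70.7 and 46.6 FPKM in scWAT and 400.2, 247 and 261 FPKM in epWAT (-2.16 ± 0.27; limma adjusted p = 0.00500). In both genes epWAT of C75 was the highest library and scWAT of C99 the lowest. Ctss, a cathepsin of antigen-presenting cells, had 126, 114 and 89.2 FPKM in scWAT and 736, 424 and 558 FPKM in epWAT (-2.35 ± 0.22; limma adjusted p = 0.00393), and Lyz2, lysozyme, had 439.8, 380.3 and 397 FPKM in scWAT and 1488, 1061 and 1375 FPKM in epWAT (-1.68 ± 0.14; limma adjusted p = 0.00319). Csf1r, the receptor that macrophages need to survive, was lower by 1.18 ± 0.14, Itgam, the integrin CD11b, by 1.29 ± 0.16, the complement gene C1qb by 1.40 ± 0.10 and the endotoxin coreceptor Cd14 by 1.11 ± 0.11. Of 19 macrophage genes tested among 20, none was higher and 17 were lower, and all 19 had a negative difference (median -1.33). Their summed level was 1123 to 1339 FPKM in scWAT and 3149 to 4628 FPKM in epWAT.

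The genes that mark lipid-associated macrophages, the cells that ring dying adipocytes, were lower too. Gpnmb, a glycoprotein of lipid-laden macrophages, had 23.4, 29.9 and 10.2 FPKM in scWAT and 316, 151 and 210.1 FPKM in epWAT (-3.41 ± 0.43; limma adjusted p = 0.00510). Trem2, the lipid-sensing receptor that defines these cells, had 6.63, 6.72 and 2.76 FPKM in scWAT and 54.0, 28.4 and 33.7 FPKM in epWAT (-2.66 ± 0.35; limma adjusted p = 0.00549). Mmp12, macrophage elastase, had 13.1, 11.6 and 5.24 FPKM in scWAT and 153, 57.2 and 78.8 FPKM in epWAT (-3.11 ± 0.44; limma adjusted p = 0.00665). In these 3 genes epWAT of C75 was again the highest and scWAT of C99 the lowest. Itgax, the integrin CD11c, was lower by 2.50 ± 0.31, the galectin Lgals3 by 2.08 ± 0.26, the acid lipase Lipa by 1.94 ± 0.24, the proton pump subunit Atp6v0d2 by 2.98 ± 0.39, the tetraspanin Cd9 by 1.16 ± 0.20 and the secreted phosphoprotein Spp1 by 2.65 ± 0.35. Of 16 genes in the list, 11 were lower and 2 higher (median -1.55). The higher ones were Lpl, lipoprotein lipase, with 1125, 1015 and 1097 FPKM in scWAT and 588, 678 and 781 FPKM in epWAT, and the acid phosphatase Acp5. Lpl is also a major adipocyte gene.

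Resident macrophage genes were mixed. Lyve1, a hyaluronan receptor of perivascular macrophages and lymphatics, had 13.4, 17.6 and 15.4 FPKM in scWAT and 11.3, 19.8 and 12.9 FPKM in epWAT (0.10 ± 0.20; limma adjusted p = 0.758). Cd163, the haemoglobin scavenger receptor, had 18.6, 17.9 and 25.6 FPKM in scWAT and 12.8, 26.3 and 19 FPKM in epWAT (0.13 ± 0.26; limma adjusted p = 0.757). The depots overlapped in both. The folate receptor Folr2 missed the test at -0.83 ± 0.25 (limma adjusted p = 0.0613, or 0.0179 when blocked by mouse). The mannose receptor Mrc1 was lower by 0.77 ± 0.16, a call lost without scWAT of C85 or scWAT of C99 (limma adjusted p = 0.0667 and 0.0744), and the scavenger receptor Stab1 was lower by 0.90 ± 0.15. Of 13 resident macrophage genes tested among 14, 1 was higher and 4 lower, with 3 and 6 under the mouse block, and the median was -0.14. With 1 library left out, 0 to 2 were higher and 1 to 3 lower, with the lowest lower count without scWAT of C85 or scWAT of C99. No test compared these lists with each other.

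Promoters were read for genes of these lists to show the sequence around their starts, as RefSeq gives it for GRCm38.p6 (250 bases before to 50 after the start of the gene, on the strand of the gene). The word GAGGAAGT, as bound by the myeloid factor PU.1, was searched on both strands. It stood in 3.88% of the promoters of 9254 tested genes, in 1.89% of 689 for genes called higher, in 6.76% of 1434 for genes called lower, in 2 of 13 macrophage and 2 of 13 lipid-associated macrophage promoters. The promoters below, of Ctss (chr3:95526536-95526835, plus strand), Spp1 (chr5:104434861-104435160, plus strand) and Mmp12 (chr9:7344147-7344446, plus strand), are shown because they hold it, in capitals, and belong to genes lower in scWAT. In Ctss and Mmp12 the capitals read the other strand of the word. The match begins at base -2 from the start in Ctss, -113 in Spp1 and -88 in Mmp12, and a match is a run of letters, not evidence of binding.
Ctss: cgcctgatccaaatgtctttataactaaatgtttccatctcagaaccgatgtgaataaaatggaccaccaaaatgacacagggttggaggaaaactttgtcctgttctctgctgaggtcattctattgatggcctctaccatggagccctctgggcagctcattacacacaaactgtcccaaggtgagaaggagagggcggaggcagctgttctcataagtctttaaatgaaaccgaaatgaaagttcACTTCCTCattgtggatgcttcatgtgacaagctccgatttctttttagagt
Spp1: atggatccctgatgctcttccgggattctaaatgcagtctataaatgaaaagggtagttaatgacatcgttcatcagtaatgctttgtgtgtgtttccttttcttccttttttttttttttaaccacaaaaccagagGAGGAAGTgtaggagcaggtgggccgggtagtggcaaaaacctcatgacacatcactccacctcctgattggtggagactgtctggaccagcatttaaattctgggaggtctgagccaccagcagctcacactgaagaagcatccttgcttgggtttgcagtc
Mmp12: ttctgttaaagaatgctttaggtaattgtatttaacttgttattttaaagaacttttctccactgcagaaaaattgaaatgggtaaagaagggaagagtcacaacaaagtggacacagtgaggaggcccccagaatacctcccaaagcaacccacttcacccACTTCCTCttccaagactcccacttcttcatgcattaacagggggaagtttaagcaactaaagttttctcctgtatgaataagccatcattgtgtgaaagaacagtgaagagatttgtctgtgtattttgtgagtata

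Lysosomal genes, which serve digestion in macrophages and in every other cell, were lower in scWAT as a group. Ctsd, cathepsin D, had 308, 351 and 262 FPKM in scWAT and 601, 487 and 519 FPKM in epWAT (-0.81 ± 0.13; limma adjusted p = 0.00959). Gusb, beta-glucuronidase, had 27.7, 33.3 and 25.2 FPKM in scWAT and 78.3, 58.8 and 63.4 FPKM in epWAT (-1.19 ± 0.14; limma adjusted p = 0.00471). The depots did not overlap in either. The membrane protein Lamp1 was lower by 0.46 ± 0.06, cathepsin B (Ctsb) by 0.77 ± 0.11, the protective protein Ctsa by 0.99 ± 0.14 and the proton pump subunit Atp6v1a by 0.92 ± 0.16. Of 28 genes tested, 21 were lower, none was higher, and all 28 had a negative difference (median -0.70), with 14 lower without mouse C99 in a blocked fit. The palindrome TCACGTGA, the core of the element bound by the lysosomal regulator TFEB, stood in 5 of 21 lysosomal promoters (23.8%) and in 2.23% of the promoters of 9254 tested genes, with 2.65% for genes called lower. The 5 include genes that were not called. The promoters of Ctsa (chr2:164833523-164833822, plus strand), Ctsd (chr7:142387778-142388077, minus strand) and Atp6v1a (chr16:44139210-44139509, minus strand) are shown, in the same RefSeq build and reading, because they hold the word (capitals) and their genes were called. Ctsa holds it at -13 and again at 5, Ctsd at -99 and Atp6v1a at -132.
Ctsa: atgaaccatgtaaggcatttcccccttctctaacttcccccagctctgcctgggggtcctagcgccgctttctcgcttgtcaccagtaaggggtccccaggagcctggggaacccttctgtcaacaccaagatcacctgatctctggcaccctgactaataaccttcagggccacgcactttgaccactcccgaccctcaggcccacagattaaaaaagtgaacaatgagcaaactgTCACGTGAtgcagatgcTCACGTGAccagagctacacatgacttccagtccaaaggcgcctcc
Ctsd: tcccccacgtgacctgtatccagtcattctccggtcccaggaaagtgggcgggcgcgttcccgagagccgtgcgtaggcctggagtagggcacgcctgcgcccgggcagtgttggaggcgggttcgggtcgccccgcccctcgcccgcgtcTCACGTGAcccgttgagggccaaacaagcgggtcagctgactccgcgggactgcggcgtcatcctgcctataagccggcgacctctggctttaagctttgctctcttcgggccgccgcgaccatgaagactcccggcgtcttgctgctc
Atp6v1a: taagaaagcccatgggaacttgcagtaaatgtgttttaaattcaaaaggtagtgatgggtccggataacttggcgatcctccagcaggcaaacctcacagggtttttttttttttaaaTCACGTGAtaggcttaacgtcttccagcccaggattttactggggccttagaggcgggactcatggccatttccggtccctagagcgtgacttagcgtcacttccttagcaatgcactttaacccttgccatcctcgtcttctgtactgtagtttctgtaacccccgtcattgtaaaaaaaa

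Antigen presentation and cell division genes were lower as well. Cd74, the invariant chain of MHC class II, had 602, 405 and 639.7 FPKM in scWAT and 1288, 808 and 1130 FPKM in epWAT (-0.97 ± 0.23; limma adjusted p = 0.0302). H2-Aa and H2-Ab1, the class II chains, were lower by 0.93 ± 0.24 and 0.95 ± 0.23. In all 3 genes C85 was the lowest mouse in each depot, and the depots did not overlap. Of 10 class II genes tested among 12, 9 were lower and none higher (median -1.0), but 2 to 10 were lower with 1 library left out, with 2 when epWAT of C75, epWAT of C99 or scWAT of C99 was left out, 3 without scWAT of C85 and 5 without scWAT of C75. Each of Cd74, H2-Aa and H2-Ab1 lost its call in 5 of these 6 omissions (limma adjusted p = 0.0528 to 0.105). With limma-voom on recovered reads 2 were lower, in a fit that did not test every member. Mki67, the proliferation antigen Ki-67, had 3.01, 2.19 and 2.26 FPKM in scWAT and 8.03, 5.08 and 5.06 FPKM in epWAT (-1.0 ± 0.18; limma adjusted p = 0.0129), Top2a, a topoisomerase of dividing cells, differed by -0.97 ± 0.18 and Pcna, the replication clamp, by -0.85 ± 0.15. Of 25 cell cycle genes tested, 19 were lower, none was higher and all 25 were negative (median -0.83). Without scWAT of C99 4 were lower and without scWAT of C85 7, and Mki67 lost its call in the first case (limma adjusted p = 0.0531) and Top2a in both (0.0529 and 0.0512). Through epWAT alone 1 of the 25 cell cycle genes passed the filter, and 18 of the other 24 were lower.

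Complement genes were split. C3, the central component, had 181, 155 and 162 FPKM in scWAT and 441, 432 and 524 FPKM in epWAT (-1.48 ± 0.10; limma adjusted p = 0.00234), and C3ar1, the receptor for its fragment C3a, was lower by 2.24 ± 0.22. Cfd, the adipocyte-secreted factor D or adipsin, was higher, with 2356, 2093 and 3251 FPKM in scWAT and 713, 954 and 1201 FPKM in epWAT (1.43 ± 0.24; limma adjusted p = 0.0103). C99 was the highest mouse for Cfd in both depots. Of 19 complement genes tested, 2 were higher and 9 lower (median -0.28).

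Chemokine genes were called in both directions, at about the share of all genes tested. Cxcl14, a chemokine of skin and fat, was higher, with 59.3, 45.4 and 37.0 FPKM in scWAT and 14.5, 10.6 and 7.85 FPKM in epWAT (2.02 ± 0.24; limma adjusted p = 0.00481). Ccl6 and Ccl9, macrophage chemokines of mice, were lower by 1.22 ± 0.10 and 1.65 ± 0.14. Ccl2, the monocyte attractant, had 25.9, 8.64 and 15.0 FPKM in scWAT and 47.2, 27.8 and 28.6 FPKM in epWAT and missed the test (-1.10 ± 0.39; limma adjusted p = 0.0905, or 0.00794 when blocked by mouse). Of 27 chemokine and receptor genes tested, 1 was higher and 5 lower (22.2% called, against 22.4% of all genes tested), or 2 and 10 when blocked by mouse. With 1 library left out 1 or 2 were higher (2 without epWAT of C75, epWAT of C99 or scWAT of C85) and 3 to 8 were lower, with 3 without scWAT of C85 or scWAT of C99 and 8 without scWAT of C75. Of 14 inflammation genes tested among 22, none was higher and 4 lower, or 8 lower with the block; Tgfb1 was lower by 1.00 ± 0.16 and Il1rn, the interleukin 1 receptor antagonist, by 1.82 ± 0.28. Of 25 interferon-stimulated genes tested, 2 were higher (8.00%) and none lower, with 5 higher under the block and 0 to 4 with 1 library left out (0 without scWAT of C99, 4 without epWAT of C85), and with 5 higher under upper-quartile and 6 under quantile scaling.

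Mast cell proteases were higher in scWAT. Tpsb2, a tryptase, had 21.5, 16.6 and 16 FPKM in scWAT and 7.46, 4.0 and 6.43 FPKM in epWAT (1.47 ± 0.21; limma adjusted p = 0.00693). Cma1, a chymase, had 16.9, 11.5 and 10.8 FPKM in scWAT and 5.52, 1.85 and 3.37 FPKM in epWAT (1.67 ± 0.31; limma adjusted p = 0.0139), and carboxypeptidase Cpa3 was higher by 1.24 ± 0.19. C75 was the highest mouse for both proteases in each depot. In the list of mast cell, neutrophil and dendritic cell genes, 10 were tested of 19, and 5 were higher and 1 lower, with 2 higher with limma-voom on recovered reads, 3 higher without scWAT of C85 and none lower in 4 of the 6 omissions. Through scWAT alone 1 of the 10 passed the filter, and 4 of the other 9 were higher and 1 lower. Il7r, the interleukin 7 receptor, had 3.33, 4.32 and 2.37 FPKM in scWAT and 30.6, 17.2 and 26.0 FPKM in epWAT (-2.55 ± 0.24; limma adjusted p = 0.00393) and was the called member among 9 T and NK cell genes tested of 25. Of 4 B cell genes tested of 15, 1 was lower, and none without scWAT of C85 or scWAT of C99. The lower one passed the filter through epWAT alone, and none of the other 3 was called.

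Adipocyte genes leaned to scWAT. Plin1, the coat protein of the lipid droplet, had 519, 465 and 554 FPKM in scWAT and 287, 317 and 337 FPKM in epWAT (0.70 ± 0.10; limma adjusted p = 0.00617). Car3, carbonic anhydrase 3, had 5174, 5073 and 5497 FPKM in scWAT and 2330, 2859 and 3030 FPKM in epWAT (0.95 ± 0.12; limma adjusted p = 0.00574), and Pck1, the glyceroneogenic enzyme PEPCK, had 281, 265 and 381 FPKM in scWAT and 134, 117 and 97.8 FPKM in epWAT (1.39 ± 0.17; limma adjusted p = 0.00501). The depots did not overlap in these 3 genes. Adipoq was higher by 0.61 ± 0.13 (limma adjusted p = 0.0185) and lost its call without scWAT of any 1 mouse (0.0585 to 0.0640). Cidec, the protein that fuses lipid droplets, overlapped between depots (0.25 ± 0.15; limma adjusted p = 0.272), and its difference was -0.01 under quantile scaling. Of 26 adipocyte genes tested, 15 were higher and 1 lower (median 0.49). The lower one was Agt, angiotensinogen, with 4.74, 11.7 and 4.52 FPKM in scWAT and 24.8, 37.3 and 42.1 FPKM in epWAT (-2.24 ± 0.36; limma adjusted p = 0.00920).

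Among secreted products, Lep, leptin, did not separate the depots, with 1579, 1747 and 1705 FPKM in scWAT and 1292, 1624 and 1570 FPKM in epWAT (0.17 ± 0.11; limma adjusted p = 0.321), and its sign turned under quantile scaling (-0.11). Enpp2, autotaxin, had 110.3, 124 and 94.7 FPKM in scWAT and 44.9, 47.2 and 51.9 FPKM in epWAT (1.17 ± 0.11; limma adjusted p = 0.00393), and the BMP family member Bmp3 was higher by 1.10 ± 0.17. Metrnl, meteorin-like, was lower by 1.19 ± 0.16 and Lcn2, lipocalin 2, by 1.23 ± 0.17. Of 27 adipokine genes tested, 7 were higher and 4 lower (median 0.21), with 3 higher without scWAT of C99. Through epWAT alone 2 of the 27 passed the filter, and 7 of the other 25 were higher and 2 lower.

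Genes for releasing and burning fat were higher more often than the 7.49% of all genes. The droplet proteins Plin4 and Plin5 were higher by 0.82 ± 0.11 and 0.93 ± 0.12. Pnpla2, the triglyceride lipase ATGL, had 538, 862 and 645 FPKM in scWAT and 358, 576 and 459 FPKM in epWAT. Its scWAT values exceeded the epWAT values in 3 of 3 mice but overlapped across mice, so the test without a block missed (0.55 ± 0.23; limma adjusted p = 0.133) and the test with the mouse as a block passed (0.00422). Adrb3, the beta-3 adrenergic receptor, had 36.0, 46.5 and 44.1 FPKM in scWAT and 49.2, 56.3 and 77.5 FPKM in epWAT (-0.50 ± 0.18; limma adjusted p = 0.0941, or 0.0260 with the block). Of 24 lipolysis genes tested, 10 were higher and none lower (median 0.46), with 6 higher without scWAT of C99. In fatty acid oxidation Cpt2, which carries acyl groups into the mitochondrial matrix, was higher by 0.68 ± 0.07 and Hadh, a hydroxyacyl-CoA dehydrogenase, by 0.70 ± 0.08; 13 of 22 were higher and none lower (median 0.34), with 6 higher without scWAT of C85 or scWAT of C99.

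Fat synthesis did not lean to 1 depot. Fasn, fatty acid synthase, had 236, 265 and 277 FPKM in scWAT and 275, 311 and 304 FPKM in epWAT (-0.20 ± 0.09; limma adjusted p = 0.158). Scd1, stearoyl-CoA desaturase, was also not called (0.10 ± 0.24; limma adjusted p = 0.805), and turned to -0.17 under quantile scaling. Acly, the citrate lyase that feeds the pathway, was lower by 0.55 ± 0.06, and Mogat2, a monoacylglycerol acyltransferase, by 0.64 ± 0.07, while Mogat1 was higher by 0.90 ± 0.14 and the citrate carrier Slc25a1 by 0.50 ± 0.10. Of 27 genes tested, 5 were higher and 4 lower (median 0.10), or 8 and 8 when blocked by mouse. Without scWAT of C85 3 were higher, and without scWAT of C75 or under upper-quartile scaling 2 were lower.

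Mitochondrial enzyme genes were higher by small, even amounts. Cs, citrate synthase, had 86.4, 85.6 and 89.8 FPKM in scWAT and 67.2, 66.2 and 70.2 FPKM in epWAT (0.36 ± 0.05; limma adjusted p = 0.00784). Bckdha, of the branched-chain keto acid dehydrogenase, was higher by 0.58 ± 0.09. Of 30 genes of the tricarboxylic acid cycle and branched-chain amino acid breakdown, 28 were higher and none lower, and all 30 had a positive difference (median 0.41). Of 58 nuclear-encoded respiratory chain subunits tested, 40 were higher and none lower (median 0.27), with values such as 0.39 ± 0.06 for Ndufs1 of complex I, 0.41 ± 0.06 for Sdha of complex II, 0.35 ± 0.06 for Uqcrc1 and 0.48 ± 0.07 for Cyc1 of complex III. These counts were smaller with fewer libraries: without scWAT of C99, scWAT of C85, epWAT of C99, epWAT of C85 and epWAT of C75, 8, 14, 17, 20 and 26 respiratory chain genes were higher, 6 without mouse C99 in a blocked fit, and without scWAT of C99 and scWAT of C85, 16 and 18 genes of the first list.

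Transcripts of the mitochondrial genome took 9.98% to 10.4% of the summed FPKM in scWAT and 6.98% to 8.12% in epWAT. Cytochrome b, mt-Cytb, had 5754, 5475 and 6115 FPKM in scWAT and 3535, 3424 and 4417 FPKM in epWAT (0.62 ± 0.13; limma adjusted p = 0.0202), mt-Nd6 was higher by 0.61 ± 0.10, and mt-Nd1 was higher by 0.40 ± 0.10 (limma adjusted p = 0.0365) but at -0.10 under quantile scaling. Of 12 genes tested, 7 were higher and none lower, and all 12 were positive in the fit (median 0.50). Under quantile scaling 3 were higher, and 1, 2, 4 and 4 without scWAT of C99, scWAT of C85, scWAT of C75 and epWAT of C85. The calls of mt-Cytb and mt-Nd1 were lost without any 1 scWAT library (limma adjusted p = 0.0601 to 0.0805 and 0.0886 to 0.139), and that of mt-Nd1 also without epWAT of C75 or epWAT of C85 (0.0732 and 0.0841).

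Insulin pathway genes leaned to scWAT. Slc2a4, the insulin-responsive glucose transporter GLUT4, had 40.1, 47.9 and 57.4 FPKM in scWAT and 20.5, 27.6 and 28.2 FPKM in epWAT (0.90 ± 0.17; limma adjusted p = 0.0137), and the substrate gene Irs1 was higher by 0.58 ± 0.07. The inhibitory adaptor Grb14 was also higher, with 13.7, 12.4 and 15.7 FPKM in scWAT and 4.71, 4.08 and 3.07 FPKM in epWAT (1.60 ± 0.14; limma adjusted p = 0.00387), while the phosphatase Ptpn1 was lower by 0.62 ± 0.11. Of 22 genes tested, 7 were higher and 2 lower (median 0.37), with 14 higher under the mouse block, 4 without epWAT of C75, scWAT of C75 or scWAT of C99, and 1 lower without any 1 scWAT library.

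Thermogenic genes were mixed. Cidea, a droplet protein of brown and beige fat, had 7.06, 10.2 and 14.4 FPKM in scWAT and 1.41, 1.91 and 1.65 FPKM in epWAT (2.08 ± 0.23; limma adjusted p = 0.00431), and Prdm16, the beige fat regulator, was higher by 0.80 ± 0.15, a call lost without scWAT of C99 (limma adjusted p = 0.0566). Ucp1, the uncoupling protein, was not tested because it had 10 reads in scWAT and 3 in epWAT, a ratio of 3.41 whose interval of 0.879 to 19.3 includes no difference. Ckb, the brain-type creatine kinase, had 21.2, 15.6 and 14.1 FPKM in scWAT and 91.9, 43.9 and 51.0 FPKM in epWAT (-1.76 ± 0.29; limma adjusted p = 0.00981), and the creatine carrier Slc6a8 differed by -1.36 ± 0.20. Of 15 genes tested among 24, 6 were higher and 3 lower (median 0.13), with 5 lower under the block and 2 and 3 higher without scWAT of C99 and epWAT of C85.

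**Figure D3:**
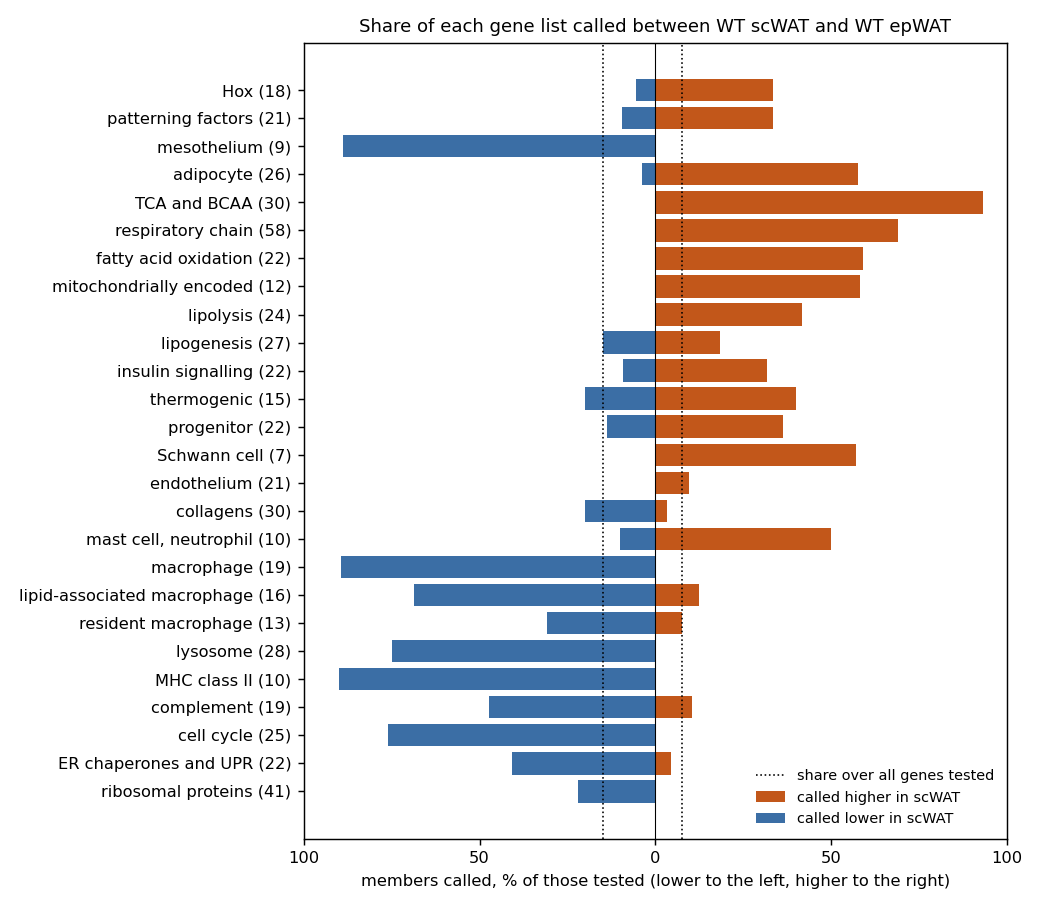
Share of the tested members of 26 gene lists that were called higher (orange, to the right) or lower (blue, to the left) in WT scWAT than in WT epWAT, in percent of the members tested, whose number stands in brackets. Dotted lines are the shares over all genes tested, 7.49% higher and 14.9% lower, and macrophage, mesothelium, lysosome, MHC class II, cell cycle and ribosomal bars extend to the left alone.

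In the stroma, progenitor genes differed in both directions. Wnt2, a Wnt ligand, had 1.67, 1.28 and 1.77 FPKM in scWAT and 0.250, 0.101 and 0.146 FPKM in epWAT (1.14 ± 0.13; limma adjusted p = 0.00431), and Dact2, a modulator of Wnt and TGF-beta signals, had 9.06, 5.27 and 7.56 FPKM in scWAT and 1.04, 1.18 and 2.59 FPKM in epWAT (1.69 ± 0.26; limma adjusted p = 0.00852). Mgp, matrix Gla protein, was lower, with 37.4, 15.7 and 37.2 FPKM in scWAT and 139, 89.3 and 115 FPKM in epWAT (-1.97 ± 0.35; limma adjusted p = 0.0120). Of 22 progenitor genes tested, 8 were higher and 3 lower (median 0.21), with 5 higher without epWAT of C99 or with limma-voom on recovered reads, and 1 lower without epWAT of C85, scWAT of C85 or scWAT of C99. Wnt2 passed the filter through scWAT alone, and 7 of the other 21 were higher and 3 lower.

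Fibrillar collagens were not called. Col1a1 had 222, 186 and 174 FPKM in scWAT and 189.5, 134 and 113 FPKM in epWAT, higher in scWAT of 3 of 3 mice but overlapping across them (0.44 ± 0.20; limma adjusted p = 0.161, or 0.0211 when blocked by mouse), and Col3a1 stood at 0.29 ± 0.18 (limma adjusted p = 0.295). Collagen VI chains were lower: Col6a1 had 188, 188 and 188 FPKM in scWAT and 312, 277 and 314 FPKM in epWAT (-0.67 ± 0.07; limma adjusted p = 0.00425), and Col6a2 differed by -0.64 ± 0.07. The one collagen-list gene called higher was Lox, the lysyl oxidase that crosslinks collagen (0.87 ± 0.10). Of 30 genes tested, 1 was higher and 6 lower (median -0.11), or 6 and 12 when blocked by mouse, and 2 to 4 were higher without epWAT of C75 or epWAT of C85 and under the other scalings. Called members made up 23.3% of the 30, against 22.4% of all genes tested. Col6a5 passed the filter through epWAT alone, and 1 of the other 29 was higher and 5 were lower. Of 33 other matrix genes 3 were higher and 7 lower (median -0.19; 11 lower with the block), among them Fbln2, fibulin 2, at -0.79 ± 0.11 and Thbs1, thrombospondin 1, at -1.22 ± 0.18; without scWAT of C85 and scWAT of C99 1 and 1 were higher and 3 and 2 lower, and without epWAT of C75 4 were lower.

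Matrix proteases and inhibitors differed by member. Mmp3, stromelysin, had 28.6, 44.8 and 28.6 FPKM in scWAT and 6.64, 9.16 and 4.74 FPKM in epWAT (2.16 ± 0.25; limma adjusted p = 0.00471), and the gelatinase Mmp2 was higher by 0.71 ± 0.12. Timp1, an inhibitor of these enzymes, had 5.36, 3.50 and 3.42 FPKM in scWAT and 35.5, 15.5 and 12.8 FPKM in epWAT (-2.01 ± 0.37; limma adjusted p = 0.0132), a call lost without scWAT of C99 (0.0541). Epididymal fat of C75 was the highest library for Timp1. Of 26 genes tested, 6 were higher and 7 lower (median 0.01), with 10 higher under the block, 3 higher without epWAT of C99, and 3 higher and 4 lower without scWAT of C99. Through scWAT alone 1 of the 26 passed the filter, and 5 of the other 25 were higher and 7 lower.

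Vessels and nerves were compared through their markers. The endothelial adhesion gene Pecam1 had 33.8, 39.5 and 34.7 FPKM in scWAT and 27.7, 38.5 and 22.8 FPKM in epWAT (0.30 ± 0.18; limma adjusted p = 0.284). Erg, an endothelial transcription factor, was higher, with 10.7, 10.9 and 11.8 FPKM in scWAT and 4.61, 6.14 and 4.55 FPKM in epWAT (1.00 ± 0.11; limma adjusted p = 0.00431). Of 21 endothelial genes tested, 2 were higher (9.52%), none lower, and all 21 had a positive fitted difference (median 0.28). The median over members was -0.05 in mouse C85, whose epWAT had the highest summed endothelial level of the epWAT libraries (707, 1040 and 711 FPKM), and 8 genes were higher without epWAT of C85, against 1 without epWAT of C75, epWAT of C99, scWAT of C85 or scWAT of C99. Of 5 lymphatic genes tested of 9, 1 was lower. Of 12 pericyte and smooth muscle genes tested of 15, 3 were higher and 2 lower, among them Cspg4, the NG2 proteoglycan, at 0.59 ± 0.07; under the block 5 were higher and 1 lower, under the other scalings none was lower, and with 1 library left out at most 1 was lower and 1 to 3 higher (1 without epWAT of C99). Angiogenic factors were higher in 6 and lower in 2 of 21 cases (3 higher without scWAT of C99, 1 lower without epWAT of C75 or any 1 scWAT library), with Vegfa at 0.65 ± 0.11, Angpt1, the angiopoietin that steadies vessels, at 1.25 ± 0.11, Pdgfd at 0.98 ± 0.17 and Fgf1 at -0.62 ± 0.10. Through scWAT alone 1 of these 21 passed the filter, and 5 of the other 20 were higher and 2 lower.

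Schwann cell genes were higher in scWAT where they were called. S100b, a glial calcium-binding protein that adipocytes also express, had 8.45, 5.59 and 9.85 FPKM in scWAT and 0.875, 1.34 and 1.44 FPKM in epWAT (1.99 ± 0.20; limma adjusted p = 0.00412), and Cdh19, a Schwann cell cadherin, had 1.62, 1.38 and 1.04 FPKM in scWAT and 0.0264, 0.106 and 0.141 FPKM in epWAT (1.10 ± 0.14; limma adjusted p = 0.00510). Of 7 genes tested of 15, 4 were higher and none lower, with 2 higher without scWAT of C85, while 5 fitted differences were positive and 2 negative (lowest -0.17). Through scWAT alone 2 of the 7 passed the filter, Cdh19 among them, and 2 of the other 5 were higher. Rpl39l, a ribosomal protein paralogue, had 11.8, 5.32 and 2.16 FPKM in scWAT and 0.136, 0.205 and 0.461 FPKM in epWAT (2.33 ± 0.47; limma adjusted p = 0.0176), and lost its call without epWAT of C75 or scWAT of C85 (0.0547 and 0.0554). Axon guidance genes were higher in 4 and lower in 4 of 24 cases, with the semaphorin Sema3b at 1.09 ± 0.14 and the receptor Nrp2 at -0.77 ± 0.10. Without scWAT of C99 1 was higher and 2 lower, without scWAT of C85 2 were higher, and without epWAT of C75 2 were lower. Of the 24, 1 passed the filter through scWAT alone and 2 through epWAT alone, and 3 of the other 21 were higher and 3 lower.

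Blood and neighbouring tissue lists were read alongside. The haemoglobin and other red cell genes summed to 478, 513 and 163 FPKM in scWAT and 167, 191 and 64.7 FPKM in epWAT. The ratio was alike in the 3 mice, but C99 was low in both depots, so none of the 5 genes tested passed without a block and all 5 were higher with it (1 without scWAT of C99). Of 4 skeletal muscle genes tested of 16, Myl1 was higher (3 with the block, 2 without scWAT of C85 and under quantile scaling), and the list summed to 149, 181 and 66.3 FPKM in scWAT and 31.9, 50.6 and 26.8 FPKM in epWAT. Among scWAT libraries this sum was highest in C85, where Ckm and Myh4 were lowest. Neither of 2 epithelial genes, nor the 1 epididymis and testis gene, nor the 1 lymph node gene that reached the filter was called, and the lymph node gene was higher without scWAT of C85. The part of blood and muscle in the other results was not tested.

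Signalling lists were split. For Wnt genes, 3 of 21 tested were higher and 4 lower, with the receptor Fzd4 at 0.69 ± 0.11, and 2 were lower without scWAT of C85 or scWAT of C99. Of the 21, 1 passed the filter through scWAT alone and 3 through epWAT alone, and 2 of the other 17 were higher and 2 lower. For TGF-beta and BMP genes, 4 of 26 were higher and 3 lower (26.9% called, against 22.4% of all genes tested), with 2 higher without epWAT of C99 or scWAT of C99. For retinoid genes, 1 of 14 was higher and 3 lower, with 3 higher under the block, 2 higher without epWAT of C85 and under upper-quartile scaling, and 1 lower without epWAT of C75 or scWAT of C85. Aldh1a2, which makes retinoic acid and is abundant in mesothelium, had 4.06, 2.68 and 3.03 FPKM in scWAT and 19.3, 11.5 and 13.2 FPKM in epWAT (-1.86 ± 0.20; limma adjusted p = 0.00431), and Rxrg, a retinoid X receptor, was higher by 0.52 ± 0.09. For steroid genes, 3 of 13 were higher and 2 lower, with Hsd11b1, which regenerates active glucocorticoid, at 24.5, 23.4 and 27.1 FPKM in scWAT and 11.8, 16.8 and 13.6 FPKM in epWAT (0.80 ± 0.13; limma adjusted p = 0.00934). Of these 13, 1 was lower without epWAT of C75 or scWAT of C85 and none without scWAT of C99. Through scWAT alone 1 of the 13 passed the filter and through epWAT alone 1, and 2 of the other 11 were higher and 1 lower. Fkbp5, a glucocorticoid-induced chaperone, followed the mouse more than the depot, with 8.87, 34.4 and 23.4 FPKM in scWAT and 6.88, 22.7 and 14.9 FPKM in epWAT (0.51 ± 0.57; limma adjusted p = 0.568, or 0.00916 when blocked by mouse). Of 13 glucocorticoid-responsive genes, none was higher and 2 lower, including Cdkn1a at -0.61 ± 0.11, and 5 were higher with the block and 1 without scWAT of C75. Called members made up 15.4% of the 13, against 22.4% of all genes tested, and 1 of the 2 lower genes passed the filter through epWAT alone.

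Imprinted and clock genes were higher where they were called. Nnat, neuronatin, a paternally expressed membrane protein, had 584, 767 and 1032 FPKM in scWAT and 195, 322 and 254 FPKM in epWAT (1.62 ± 0.25; limma adjusted p = 0.00878). Of 15 imprinted genes tested of 20, 6 were higher and none lower (median 0.25), with 2, 3 and 3 higher without scWAT of C99, epWAT of C85 and epWAT of C99, and 2 lower without scWAT of C75 or with the block. Of the 15, 2 passed the filter through scWAT alone, and 4 of the other 13 were higher. Of 17 clock genes tested, 5 were higher and none lower (8 with the block, 2 without epWAT of C75, epWAT of C99 or scWAT of C85, 1 without scWAT of C99). Among 18 immediate-early and heat shock genes, none was higher and 5 were lower (27.8%, against 14.9% of all genes tested), 3 under either other scaling or without any 1 epWAT library and 2 without scWAT of C99. Atf3, a stress-induced transcription factor, led them, with 11.3, 11.0 and 6.94 FPKM in scWAT and 76.9, 42.0 and 59.3 FPKM in epWAT (-2.48 ± 0.26; limma adjusted p = 0.00431).

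Chaperones, detoxifying enzymes, sterol enzymes and ribosomal proteins completed the lists. The endoplasmic reticulum chaperone Hspa5, or BiP, was lower by 0.38 ± 0.06, while Asns, asparagine synthetase, was the 1 gene of its list that was higher (0.74 ± 0.09). Of 22 genes of the unfolded protein response 9 were lower (median -0.29). The glutathione transferases split, with Gstt1 at 49.4, 44.5 and 60.9 FPKM in scWAT and 20.4, 21.6 and 18.4 FPKM in epWAT (1.31 ± 0.12; limma adjusted p = 0.00393), and Gstm1 at 165, 198 and 200 FPKM in scWAT and 329, 449.8 and 363 FPKM in epWAT (-1.01 ± 0.14; limma adjusted p = 0.00611). Of 32 antioxidant genes, 7 were higher and 7 lower, with 13 higher under the block, 11 higher under upper-quartile scaling and 3, 3, 3 and 4 lower without scWAT of C75, scWAT of C85, scWAT of C99 and epWAT of C99, and 2 lower without mouse C99 in a blocked fit. Of 22 sterol genes, 7 were lower and none higher (4 lower without mouse C99 in a blocked fit), with Dhcr7, the last enzyme of cholesterol synthesis, at -0.69 ± 0.08. Of 41 ribosomal protein genes tested, 9 were lower (22%), against 14.9% of all genes tested, and all 41 were negative (median -0.24), with Rps2 at -0.39 ± 0.07 and Rpl10a at -0.48 ± 0.08. Under the block 15 were lower, under upper-quartile scaling 2, and with 1 library left out 2 to 21 (21 without epWAT of C85, 3 without either of the other epWAT libraries, 2 without any 1 scWAT library), and none without mouse C99 in a blocked fit.

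**Figure D4:**
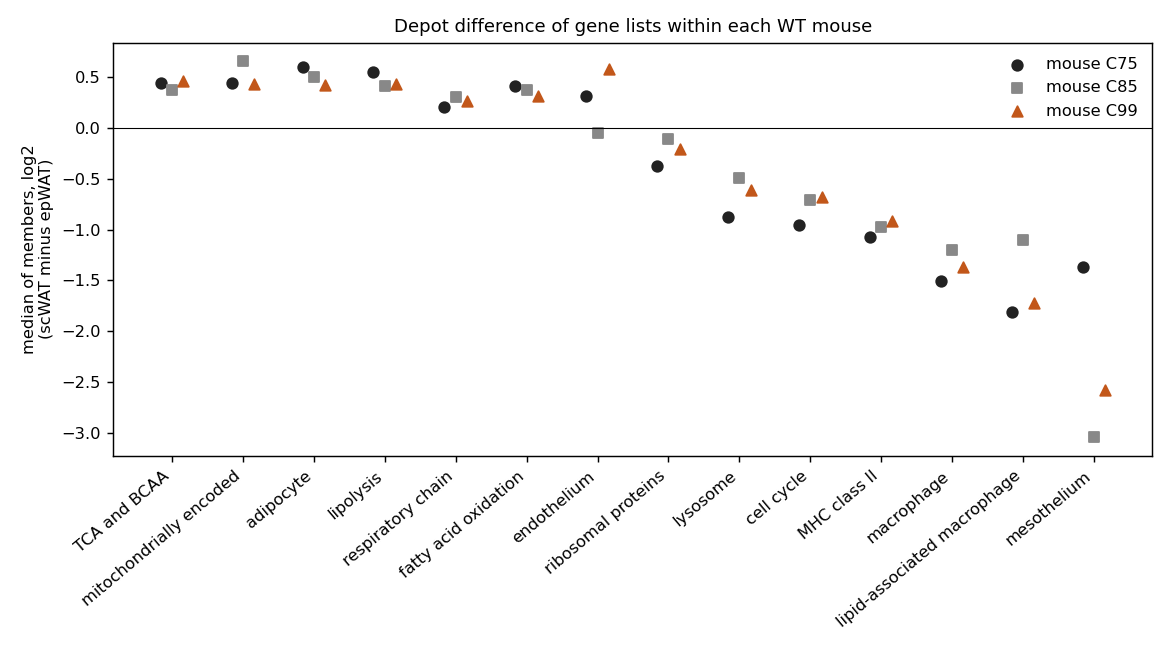
Median over the tested members of 14 gene lists of the depot difference within each WT mouse (vertical axis, scWAT minus epWAT, log2), with mouse C75 as a black circle, C85 as a grey square and C99 as an orange triangle. The 3 mice fall on the same side of 0 in all lists but the endothelial one, where C85 stands at -0.05; macrophage medians are -1.51, -1.20 and -1.37 and mesothelial medians -1.37, -3.04 and -2.58.

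The KO libraries show which of these gaps the same diet gave in mice labelled as C2orf74 knockouts. The gene taken as the mouse counterpart, 1700093K21Rik, had 2, 0 and 0 reads in KO scWAT and 1, 0 and 0 in KO epWAT (mice C7, C34, C695), against 7, 10 and 3 reads in WT scWAT and 0, 5 and 2 in WT epWAT. Some KO libraries held transcripts of other tissue. Crisp1, an epididymal secretory protein, had 219 FPKM in KO epWAT of C7 and 6.30 FPKM in KO epWAT of C695, against 0 FPKM to 0.162 FPKM in the other KO libraries, and Cd79a, a B cell receptor subunit, had 75.8 FPKM in KO scWAT of C695, against at most 4.60 FPKM in the others. In KO mice 90 of 12623 genes (0.713%) were called between scWAT and epWAT. Of the 2852 WT calls, 2679 were tested in KO mice, 1553 had the same sign there and 56 were called in the same direction. The interaction, the WT depot difference minus the KO depot difference, passed for 139 of 13487 genes (1.03%), of which 60 were positive and 79 negative and 100 were also WT depot calls. In a fit blocked by mouse no gene passed (smallest limma adjusted p = 0.0619), and 3483 genes had an unadjusted p under 0.05. Leaving out 1 library gave 0 to 926 calls, with 926 without KO epWAT of C7, 42 without KO epWAT of C695, 27 without KO scWAT of C34, 16, 8, 2 and 1 without WT epWAT of C99, WT scWAT of C85, WT scWAT of C75 and WT epWAT of C75, and none without KO epWAT of C34, WT epWAT of C85 or WT scWAT of C99. Without both KO epWAT of C7 and KO scWAT of C695 it was 1462.

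Mesothelial genes and some patterning and Hox genes differed between depots in both genotypes. Of 18 Hox genes tested in both, 14 were positive in WT and 10 in KO mice, where 3 were called higher and 0 lower. Of 19 patterning factors tested in both, 12 were positive in KO mice, where 4 were called higher and 1 lower. Of all genes tested in KO mice, 0.713% were called. Tbx15 differed by 2.50 in WT and 2.79 in KO mice, Hoxc10 by 3.17 and 2.53, and Upk3b by -3.87 and -3.95, with no interaction called (limma adjusted p = 0.377, 0.145 and 0.950). Hoxc9 differed by 1.75 in WT and 0.64 in KO mice, and its interaction passed without the block (1.11; limma adjusted p = 0.0196). Macrophage genes gave other values: Adgre1 stood at -2.06 in WT and -0.45 in KO mice, Gpnmb at -3.41 and -0.62, Ctss at -2.35 and 0.00, and Lyz2 at -1.68 and -0.17, and none of these differences between genotypes passed (limma adjusted p = 0.251, 0.316, 0.0877 and 0.103). Over the lists, macrophage medians were -1.33 in WT and 0.00 in KO mice, MHC class II medians -1.0 and 0.17, cell cycle medians -0.85 and -0.03 over the 22 genes tested in both, and adipocyte medians 0.49 and -0.06, while medians over the 9 mesothelial genes that passed the filter were -2.20 and -1.98. No test over these lists was made. The KO mice were uneven: Gpnmb had 28.8, 23.5 and 3.30 FPKM in KO scWAT and 128, 26.6 and 2.21 FPKM in KO epWAT (mice C7, C34, C695). A KO median near 0 therefore does not show that the gap was absent in each KO mouse. Lep stood at 0.17 in WT and -0.83 in KO mice, and Lpl at 0.67 and -0.31, with interactions of 1.00 and 0.98 that passed without the block (limma adjusted p = 0.0420 and 0.0383).

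**Figure D5:**
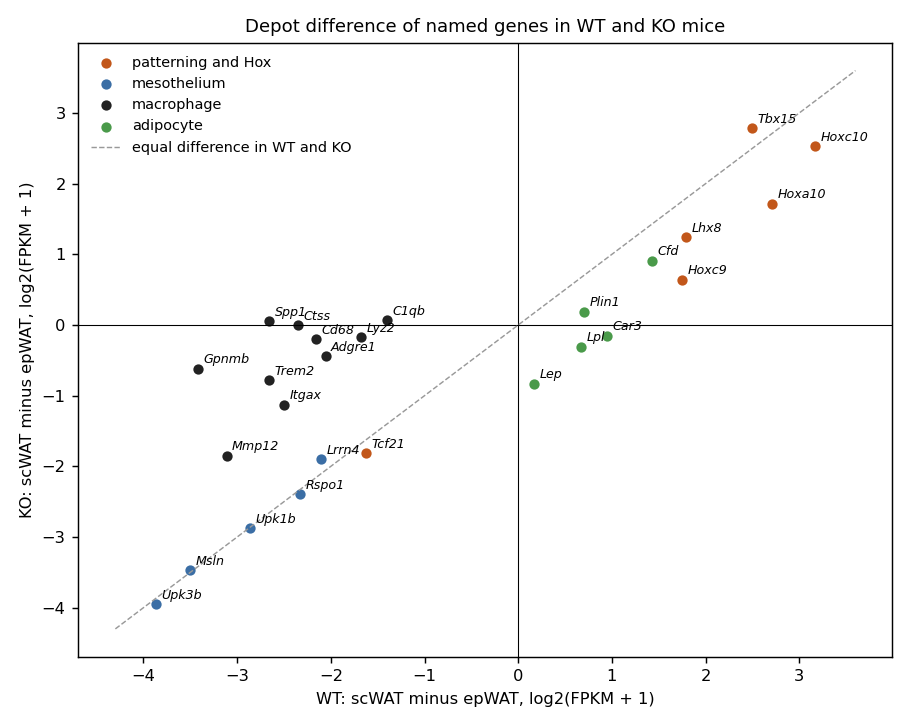
Depot difference (scWAT minus epWAT, log2(FPKM + 1)) in KO mice (vertical axis) against WT mice (horizontal axis) for named genes, coloured by group; the dashed line marks equal differences. The mesothelial genes shown lie near the line, and the patterning and Hox genes shown lie on the same side of 0 in both genotypes. The 10 macrophage genes shown lie above the line, between -3.41 and -1.40 in WT and between -1.85 and 0.07 in KO mice.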

How the data were processed

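RNA of whole fat pads from 12 libraries (4 groups of 3) was sequenced, and the comparison uses the 6 WT libraries, with the 6 KO libraries in 1 interaction. The authors deposited 1 table per library with 1 normalised value for each of 32622 Ensembl genes. Neither headers nor labels name the unit, and the deposited values are taken as FPKM because, with GENCODE M21 exon lengths of GRCm38, 30088 of 32553 matched genes (92.4%) gave whole reads within 0.01 reads in all 12 libraries, while 69 IDs had no match. Depth is the recovered total, and its intervals (95%, exact) cover counting error only. The build is mm9 per the submitters' processing notes, which the fit of the GRCm38 lengths contradicts for the gene models, and no coordinate is taken from the files. The aligner, counter and strand setting are not given in the sources used here, so for the 28 of 177 text genes that overlap an exon on the other strand (Shox2, Art3, Enpp2, Mmp12 and Ctsa among them) the reads cannot be told apart, and genes with near-identical copies (Ces1f, the Akr1c, H2, haemoglobin and mitochondrial genes, Rpl39l) are uncertain.

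Genes with at least 1 FPKM in at least 3 libraries were tested on log2(FPKM + 1) with limma 3.58.1 in R 4.3.3 (trended moderation, 2-sided, Benjamini-Hochberg over all genes, threshold 0.05), after a test on simulated data. The pseudocount understates changes of low genes, and a gene near 0 in 1 depot passes the filter only through the other. With 3 libraries per group, an exact permutation test of 1 gene could not go below 0.1, so none is given. The labels tie scWAT and epWAT to the same mice. Deviations from the group means correlated within a mouse at 0.42, 0.371 and 0.303 for C75, C85 and C99, and at -0.292 to -0.073 between mice. Deviations from a mean of 3 sum to 0, so the values between mice are not separate evidence. The pairing rests on the shared animal codes, and a batch shared by the libraries of a mouse was not tested. Nothing states separate litters or cages.

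The members and the 53 gene lists were chosen with earlier results of these data known. Genes were named from a rule of the 12 smallest p values and 8 largest changes in each direction, the first 4 and up to 4 called genes of each list, and called interactions, 408 in all. From these, genes whose call held with each library left out were preferred, and En1, Wt1, Ucp1, Krt14, Ckm, Myh4, Crisp1 and Cd79a were added as low or other-tissue markers. Spp1, Ctsa and Atp6v1a, for their promoters, and Cldn15 were chosen after their values were seen. Promoters (300 bases, RefSeq, GRCm38.p6) were searched on both strands for 13 words: GAGGAAGT and the overlapping AGAGGAAG and AGGAAGTG (PU.1), TCAAGGTCA and its core AAGGTCA (ERR), TATAAA, TCACGTGA (TFEB), AGGTGTGA and TTCACACC (T-box), TTTGAA (cell cycle homology region), TGATTTA (Hox), ACANNNTGT (glucocorticoid receptor) and CCAAT. Only GAGGAAGT and TCACGTGA are described. Some genes that the rule names are not reported here. Alternatives were other filters, pseudocounts, scalings, a minimum change, robust moderation, limma-voom on recovered reads, the block by mouse and omission of each library or mouse. Limma-voom on recovered reads covered 11158 of the 12760 genes, so a list count under it can also fall because members were not tested.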

Additional observations from a re-analysis of the deposited data

Results flagged for a closer look

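For 16 genes named by rule, the WT depot difference differed from the KO depot difference in the limma interaction without a block, with adjusted p from 0.0196 to 0.0455, and none passed with the mouse as a block (0.0619 to 0.0674). Values are the WT difference minus the KO difference, on the log2(FPKM + 1) scale, with 3 mice per genotype.

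Positive values came from genes with a larger depot difference in WT than in KO mice. Dact2 gave 2.038 (1.69 in WT, -0.35 in KO), Hoxc9 gave 1.113 (1.75 and 0.64), Art3 gave 1.074 (1.25 and 0.18), and Enpp2 gave 0.827 (1.17 and 0.34). Nexn, a protein of actin filaments, gave 1.367 (1.00 in WT, -0.36 in KO), Efcab8 gave 1.397 (0.90 and -0.50), Asns gave 0.718 (0.74 and 0.02), and Lpl gave 0.979 (0.67 and -0.31).

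The other positive values came from Lmo1, Lep and Mcam. Lmo1, a LIM-only factor, gave 1.268 (0.16 in WT, -1.11 in KO), Lep gave 1.003 (0.17 and -0.83), and Mcam, the adhesion molecule CD146, gave 0.872 (0.41 and -0.47).

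Negative values came from 5 genes whose fitted difference was negative in WT and positive in KO mice. Gm15433 gave -2.146 (-1.61 in WT, 0.53 in KO), Gngt2, a G protein subunit, gave -1.328 (-0.42 and 0.91), Tmem176b gave -1.313 (-0.80 and 0.51), Samd1 gave -0.824 (-0.52 and 0.30), and Orai3, a calcium channel subunit, gave -0.62 (-0.48 and 0.14).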

How the results depend on the processing

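With the mouse as a replicate block, 3806 genes passed against 2852. All 161 text genes called without the block kept their call, and 6 more text genes passed. Cldn15, which is left out of these counts of text genes, passed as well. The block changed no text gene's call other than those given with a blocked value. The interaction lost all calls under the block (0 genes). A minimum absolute log2 change of 1 left 5 genes (4 higher, 1 lower), and a spread estimated over 12 libraries gave 1736 (620 higher, 1116 lower) and lost 40 text genes. Without a filter 626 genes were higher. Upper-quartile scaling gave 1606 higher genes, and 2261 with the replicate block as well, a setting chosen after seeing the data. The interaction gave 23 genes without a filter, 211 under upper-quartile scaling and 1462 without KO epWAT of C7 and KO scWAT of C695.

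With 1 library left out, 1289 to 2490 genes were called (379 to 870 higher, 910 to 1620 lower), and 1635 to 3320 with 1 mouse left out under the block (477 to 1323 higher, 1158 to 1997 lower). Leaving out mouse C99 under the block ended the calls of 20 text genes: Adipoq, Prdm16, Cs, Uqcrc1, mt-Nd1, Lamp1, Ctsd, Atp6v1a, Hspa5, Hsd11b1, Fgf1, Rxrg, Rps2, Rpl10a, Mcam and the mesothelial genes Msln, Upk1b, Lrrn4, Rspo1 and Krt19. Leaving out C75 and C85 ended 4 and 3. The interaction ranged from 0 to 926. Fewer libraries entered these fits. Under quantile scaling Lep stood at -0.106, Cidec at -0.009, Scd1 at -0.168 and mt-Nd1 at -0.104. With 1 library left out, Lyve1 ranged from -0.053 to 0.327, Cd163 from -0.124 to 0.37 and Scd1 from -0.128 to 0.275, and with 1 mouse left out under the block Cd163 stood at -0.059 (C75) and -0.011 (C99). Where not stated, the cause was not tested. Pseudocounts of 0.1 and 5, a filter at 5 FPKM, robust moderation and limma-voom kept the total within 1.5 times. Genes with few reads (Tbx15 and Hoxa10 in epWAT) have wide fold intervals at this depth. Among text genes, limma-voom on recovered reads ended the calls of Upk3b and Krt19, upper-quartile scaling that of H2-Aa, quantile scaling that of mt-Cytb, a pseudocount of 5 that of Krt19, and no filter those of 13, including Adipoq, Car3, Lpl, Mrc1, Cd74, H2-Aa, H2-Ab1, Krt19 and the mitochondrial genes.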
